A study of Mus musculus with 9 samples.

Results

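The fibrillar collagen chain genes described here are Col1a1, Col1a2, Col3a1, Col5a1 and Col5a2, which encode the chains of collagen types I and III and the main chains of type V. They were taken by gene symbol, as 5 of the 24411 symbols in each deposited expression table, and they had been picked on measured values, with earlier results of these data known. Their fold changes and chain ratios are therefore given as a description, without a test. RNA was measured in 9 libraries of EB5 mouse embryonic stem cells, 3 libraries per genotype. The genotypes were Parental cells, Zfp352-KO cells, in which Zfp352 was removed with CRISPR-Cas9, and Zfp352/Zfp353-DKO cells, in which Zfp353 was removed as well. All groups carry the background of the EB5 line, a derivative of male E14tg2a cells of strain 129Ola with an IRES-BSD-pA cassette in 1 Oct3/4 allele, and all were grown on gelatin in medium with serum and leukemia inhibitory factor. The labels do not say how many clones stand behind each edited genotype.

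Fibrillar collagens are built from chains of repeated triplets that begin with glycine, so that a trio of chains can wind into a triple helix. Type I collagen is mostly a heterotrimer of α1(I) and α2(I) chains, from Col1a1 and Col1a2. Type III is a homotrimer of the Col3a1 product. Type V, usually assembled from Col5a1 and Col5a2 chains, starts fibrils and limits their diameter. These genes are hallmarks of fibroblasts, bone and other mesenchymal tissue, and are not part of the pluripotency programme of embryonic stem cells.

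The glycine repeat can be read in the genes themselves. In the GENCODE annotation of GRCm38 (mm10), the longest unbroken run of such triplets, read from their glycine codons, was 338 in Col1a1, 339 in Col1a2, 344 in Col3a1, 338 in Col5a1 and 339 in Col5a2. Much of the repeat is cut into exons of 54 bases, of which Col1a1 had 21 among 51 exons, Col1a2 24 of 52, Col3a1 24 of 51, Col5a1 29 of 66 and Col5a2 24 of 54. The sequences below are the first exon of 54 bases inside the repeat of each gene, shown because they hold the feature that the 5 chains share; they lie in coding sequence, are written 5′ to 3′ on the gene's strand, and have the glycine codons in capitals.
Col1a1 exon 8, chr11:94939904-94939957, plus strand: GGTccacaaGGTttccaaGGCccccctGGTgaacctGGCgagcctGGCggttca
Col1a2 exon 8, chr6:4515481-4515534, plus strand: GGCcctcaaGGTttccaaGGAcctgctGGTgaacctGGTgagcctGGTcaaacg
Col3a1 exon 6, chr1:45325360-45325413, plus strand: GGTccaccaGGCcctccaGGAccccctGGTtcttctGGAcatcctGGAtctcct
Col5a1 exon 15, chr2:27965251-27965304, plus strand: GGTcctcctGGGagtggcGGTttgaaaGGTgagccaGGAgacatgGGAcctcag
Col5a2 exon 10, chr1:45422386-45422439, minus strand: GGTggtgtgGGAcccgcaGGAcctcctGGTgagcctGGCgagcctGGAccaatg
Col1a1 and Col1a2, whose exons sit at the same place in the repeat, were identical at 42 of these 54 bases. Col5a1 and Col5a2 shared 27 of 54, from exons that do not start at the same codon of the repeat. Despite this likeness, no window of 75 bases, the read length, occurred in the transcripts of more than 1 of the chains over the 10 possible pairs. All 45 expected counts of the chains, 5 genes in 9 libraries, were whole numbers.

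The genes lie on 4 chromosomes. On GRCm38, Col1a1 spans chr11:94936224-94953042, Col1a2 chr6:4505618-4541543, Col3a1 chr1:45311538-45349706, Col5a1 chr2:27886381-28039510 and Col5a2 chr1:45374331-45503282. Col3a1 and Col5a2 are neighbours on chromosome 1, point towards each other and are separated by 24.6 kb. RefSeq promoter sequences of GRCm38.p6, 250 bases before to 50 bases after the start, were found for 3 of the 5 genes, Col1a2, Col3a1 and Col5a1. The promoter start of Col5a1 lies inside the gene span given above, so its last bases before the start overlap that span. The 250 bases before the start are shown for these 3, the only genes of the 5 with such a sequence. The start sites are RefSeq's, and the genes are on the plus strand. Capitals mark the letters of the CCAAT box (CCAAT), the GC box (GGGCGG) and the TATA box (TATAAA) on either strand.
Col1a2 promoter, chr6:4505368-4505617: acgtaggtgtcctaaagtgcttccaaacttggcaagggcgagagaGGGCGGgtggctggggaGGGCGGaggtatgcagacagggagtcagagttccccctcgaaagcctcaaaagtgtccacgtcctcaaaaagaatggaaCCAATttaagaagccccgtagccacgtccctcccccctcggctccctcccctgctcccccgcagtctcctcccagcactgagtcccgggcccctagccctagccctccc
Col3a1 promoter, chr1:45311288-45311537: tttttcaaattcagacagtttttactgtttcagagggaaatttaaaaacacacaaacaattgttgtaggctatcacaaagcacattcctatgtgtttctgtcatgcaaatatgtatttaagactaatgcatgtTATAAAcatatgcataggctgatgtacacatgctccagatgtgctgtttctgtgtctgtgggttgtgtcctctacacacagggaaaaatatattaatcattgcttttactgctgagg
Col5a1 promoter, chr2:27886175-27886424: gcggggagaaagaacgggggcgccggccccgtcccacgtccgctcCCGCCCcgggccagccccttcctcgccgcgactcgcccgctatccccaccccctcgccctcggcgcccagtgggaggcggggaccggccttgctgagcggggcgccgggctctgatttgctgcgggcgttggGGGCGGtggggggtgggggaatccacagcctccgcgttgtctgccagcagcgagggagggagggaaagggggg
Over the full 300 bases these promoters had unlike base composition. GC content was 61.0% for Col1a2, 37.7% for Col3a1 and 75.0% for Col5a1, beside a median of 52.7% over 32851 RefSeq promoters. Col1a2 held CCAAT letters at -109 and, on the minus strand, at 1, the start itself, and a GC box at -205 and at -188. Col5a1 held a GC box at -205 on the minus strand and at -73 on the plus strand, and Col3a1 held only a TATA box, at -117. On either strand, CCAAT occurred in 37.4% of the promoters, GGGCGG in 35.7% and TATAAA in 13.6%. The letters TGACTCA of an AP-1 site occurred in 5.2% of promoters and in none of these 3 windows. No motif searched was common to the 3 genes, and a match or its lack in these windows describes letters only.

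The libraries held 16599004 to 22044820 expected counts each, and 14300 genes had enough reads to be tested, the 5 chain genes among them. Zfp352 matched the labels: it had 47, 52 and 41 counts in Parental cells, 3, 8 and 10 counts with Zfp352-KO and 1, 1 and 3 counts with Zfp352/Zfp353-DKO. Its log2 difference from Parental was -2.65 ± 0.32 (SE) and -4.64 ± 0.42 (edgeR quasi-likelihood test, adjusted p 6.1e-05 and 8.0e-07). Some Zfp352 counts thus remained in both edited genotypes. At these low counts Zfp352/Zfp353-DKO stood at -1.99 ± 0.62 against Zfp352-KO (edgeR adjusted p 0.45). Zfp353 was not analysed here, so the deletion that separates Zfp352/Zfp353-DKO from Zfp352-KO by label was not checked. The cells carried the markers of their label: all 10 pluripotency genes listed were expressed, with a summed level of 7740 to 7870 TPM (a transcript level normalised for length and depth) in Parental libraries. That sum was 7720 to 7840 TPM in Zfp352-KO and 7800 to 7860 TPM in Zfp352/Zfp353-DKO libraries. Single genes of the list did differ from Parental. Tfcp2l1 was higher by 0.37 ± 0.06 on the log2 scale with either edited genotype (edgeR adjusted p 8.1e-04 for Zfp352-KO and 4.2e-04 for Zfp352/Zfp353-DKO). Sox2 was higher by 0.19 ± 0.04 for Zfp352/Zfp353-DKO (edgeR adjusted p 0.011). These results kept an adjusted p under 0.05 whichever library was left out. Both edited genotypes are compared with the same 3 Parental libraries, so the results of these comparisons are not independent.

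Col1a1, which encodes the α1 chain of type I collagen, was the most abundant of the chains in TPM. Its level was 10.69, 11.85 and 13.27 TPM in the Parental libraries, 5.09, 5.41 and 6.08 TPM in Zfp352-KO and 3.63, 3.80 and 4.19 TPM in Zfp352/Zfp353-DKO. The 3 genotypes did not overlap, with Parental libraries highest and Zfp352/Zfp353-DKO libraries lowest. The means were 11.9 ± 1.29 (SD, n = 3), 5.53 ± 0.505 and 3.87 ± 0.287 TPM. In log2 terms Col1a1 was at -1.15 ± 0.09 (SE) in Zfp352-KO against Parental, 2.21-fold lower, and at -1.66 ± 0.09 in Zfp352/Zfp353-DKO, 3.17-fold lower. Between the edited genotypes the difference was -0.52 ± 0.10, lower in Zfp352/Zfp353-DKO. RNA of whole cultures was measured, so fewer cells that express a gene and less RNA per cell cannot be told apart here or in any value below.

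Col1a2 supplies the α2 chain that pairs with the Col1a1 product. Its level was 5.77, 5.99 and 7.11 TPM in the Parental libraries, 4.17, 3.92 and 4.30 TPM in Zfp352-KO and 2.59, 2.69 and 2.77 TPM in Zfp352/Zfp353-DKO. Again the genotypes did not overlap and kept the same order. The log2 difference from Parental was -0.65 ± 0.09 in Zfp352-KO, or 1.57-fold lower, and -1.27 ± 0.09 in Zfp352/Zfp353-DKO, or 2.41-fold lower. Zfp352/Zfp353-DKO stood at -0.62 ± 0.10 against Zfp352-KO.

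Col3a1, the chain of the type III homotrimer, was the rarest of the 5 genes. It had 76, 64 and 95 counts in the Parental libraries, 43, 57 and 68 for Zfp352-KO and 29, 23 and 26 for Zfp352/Zfp353-DKO. In TPM this was 1.15, 1.01 and 1.62 in Parental, 0.90, 0.88 and 1.12 for Zfp352-KO and 0.46, 0.40 and 0.49 for Zfp352/Zfp353-DKO. Zfp352-KO overlapped Parental in 1 library, while every Zfp352/Zfp353-DKO library lay below every other library. The log2 difference was -0.42 ± 0.19 for Zfp352-KO and -1.52 ± 0.21 for Zfp352/Zfp353-DKO, which is 1.33-fold and 2.87-fold lower. The value in Zfp352-KO leaned on Parental replicate 3, the highest library, and was -0.22 without it. Between the edited genotypes it differed by -1.10 ± 0.22, or 2.15-fold, the largest such difference of the 5 genes in the edgeR fit. With limma on log2(TPM + 1) that difference was -0.44, smaller than the -0.48 of Col1a2.

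Col5a1 encodes the α1 chain of type V collagen, the fibril nucleator. Its level was 6.38, 5.75 and 6.74 TPM in the Parental libraries, 4.35, 4.74 and 4.72 TPM in Zfp352-KO and 3.62, 3.61 and 3.85 TPM in Zfp352/Zfp353-DKO. The genotypes were again separate and in the same order, with smaller steps than for the type I chains. The log2 difference from Parental was -0.49 ± 0.07 in Zfp352-KO, 1.40-fold lower, and -0.81 ± 0.07 in Zfp352/Zfp353-DKO, 1.75-fold lower. It was -0.32 ± 0.07 between the edited genotypes.

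Col5a2, the partner chain in type V, differed least. Its level was 2.31, 2.12 and 2.25 TPM in the Parental libraries, 2.03, 1.89 and 2.03 TPM in Zfp352-KO and 1.43, 1.92 and 2.00 TPM in Zfp352/Zfp353-DKO. Every edited library lay below every Parental library, but the edited genotypes overlapped each other. The log2 difference was -0.21 ± 0.12 for Zfp352-KO and -0.37 ± 0.12 for Zfp352/Zfp353-DKO. Replicate 1 of Zfp352/Zfp353-DKO was the lowest library, and without it the difference from Parental was -0.23 and that from Zfp352-KO moved from -0.16 to -0.03.

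**Figure D1:**
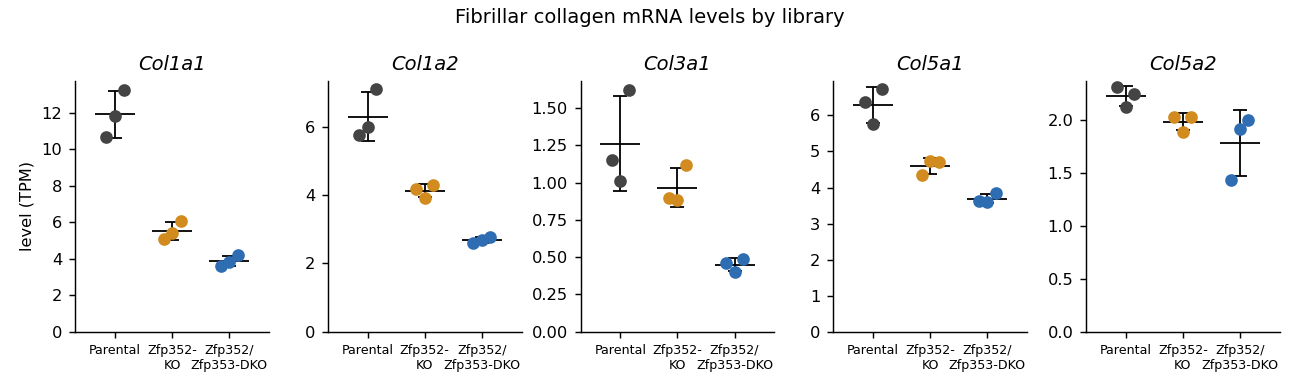
Level of each fibrillar collagen mRNA in TPM (y axis, starting at 0) by genotype (x axis), with 1 point per library and a bar for the mean ± SD of 3 libraries. Col1a1 went from 11.9 to 5.53 and 3.87 TPM from left to right, while Col5a2 went only from 2.23 to 1.98 and 1.78 TPM and its edited genotypes overlap.

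Across the 5 genes, 4 lay below Parental without overlap in Zfp352-KO, all but Col3a1, as did 9.98% of all tested genes. All 5 did so in Zfp352/Zfp353-DKO, beside 11.0% of tested genes, and 4 of 5, all but Col5a2, were lower in Zfp352/Zfp353-DKO than in Zfp352-KO, beside 5.52%. The genes were chosen on these contrasts, so these counts describe the choice. The median log2 difference of the 5 genes was -0.49 in Zfp352-KO, -1.27 in Zfp352/Zfp353-DKO and -0.52 between the edited genotypes, where the medians of all tested genes were -0.009, 0.000 and 0.001. Spread between libraries of a genotype was unequal: the pooled SD of log2 CPM (counts scaled to library size) was 0.07 for Col5a1, 0.09 for Col1a2, 0.13 for Col1a1, 0.14 for Col5a2 and 0.23 for Col3a1. The smallest differences, those of Col5a2, and the Zfp352-KO difference of Col3a1 are thus the least certain.

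The order of the levels changed with genotype. In Parental cells Col1a1 led, Col1a2 and Col5a1 followed with the same mean of 6.29 TPM and overlapping libraries, and Col5a2 and Col3a1 came last at 2.23 ± 0.0971 and 1.26 ± 0.32 TPM. In Zfp352-KO cells Col5a1, at 4.60 ± 0.22 TPM, stood above Col1a2, at 4.13 ± 0.193 TPM, without overlap. In Zfp352/Zfp353-DKO cells Col1a1, at 3.87 ± 0.287 TPM, and Col5a1, at 3.69 ± 0.136 TPM, overlapped, and Col1a2 followed at 2.68 ± 0.0902 TPM. Col5a2 and Col3a1 remained the lowest in each genotype, at 1.78 ± 0.309 and 0.45 ± 0.0458 TPM in Zfp352/Zfp353-DKO.

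The partner chains of type I collagen did not keep their ratio. Col1a1 to Col1a2, as a ratio of TPM, was 1.85, 1.98 and 1.87 in the Parental libraries. It was 1.22, 1.38 and 1.41 for Zfp352-KO and 1.40, 1.41 and 1.51 for Zfp352/Zfp353-DKO. Every edited library was below every Parental library, and the edited genotypes overlapped. The means were 1.90 ± 0.0689 (SD, n = 3), 1.34 ± 0.103 and 1.44 ± 0.0612, and 95% counting intervals on the pooled counts were 1.76 to 2.05, 1.21 to 1.49 and 1.27 to 1.64. These intervals cover counting error only. The size of the ratio also depends on transcript length. The mean deposited lengths were 4698 bases for Col1a1 and 5143 for Col1a2, where the GENCODE transcripts have 5930 and 5348. The ratio in mRNA says nothing of the chains in the protein.

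For type V collagen, Col5a1 to Col5a2 was 2.76, 2.71 and 3.0 in the Parental libraries, 2.14, 2.51 and 2.33 for Zfp352-KO and 2.53, 1.88 and 1.93 for Zfp352/Zfp353-DKO. Parental libraries were again above all edited ones, and the edited genotypes overlapped. The means were 2.82 ± 0.151, 2.33 ± 0.183 and 2.11 ± 0.364, with counting intervals of 2.56 to 3.12, 2.08 to 2.61 and 1.87 to 2.39. Col1a1 to Col3a1, the balance of types I and III, was 9.30, 11.7 and 8.19 in Parental, 5.66, 6.15 and 5.43 for Zfp352-KO and 7.89, 9.50 and 8.55 for Zfp352/Zfp353-DKO. Here Zfp352-KO alone stood below the Parental libraries, and Zfp352/Zfp353-DKO overlapped them.

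**Figure D2:**
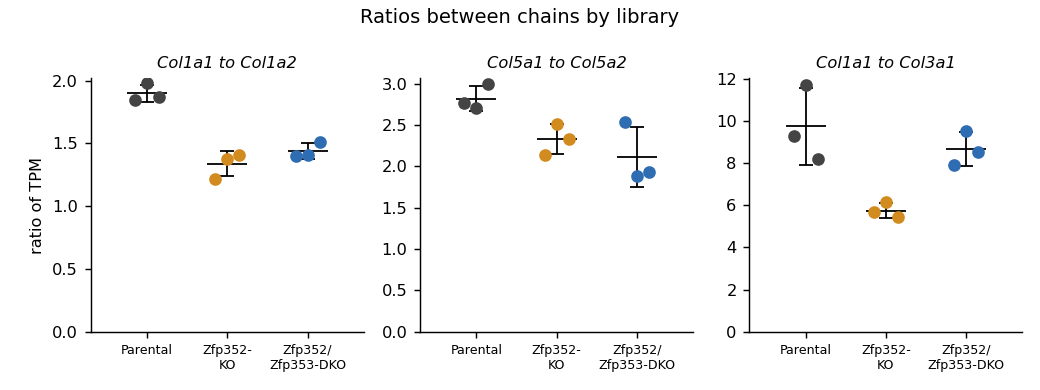
Ratio of TPM between 2 chains (y axis, starting at 0) by genotype (x axis), with 1 point per library and a bar for the mean ± SD of 3 libraries. The ratio of Col1a1 to Col1a2 was 1.90 in Parental and 1.34 and 1.44 in the edited genotypes, and Col1a1 to Col3a1 was lowest in Zfp352-KO.

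The makeup of the fibrillar collagen mRNA pool shifted with these differences. Summed over the 5 chains, the level was 28.0 ± 2.60 TPM in Parental, 17.2 ± 0.913 TPM in Zfp352-KO and 12.5 ± 0.787 TPM in Zfp352/Zfp353-DKO. Of the TPM of all 11 mouse fibrillar chain genes, the 5 chains took 77.5 ± 0.821% in Parental, 66.8 ± 2.79% for Zfp352-KO and 61.8 ± 1.80% for Zfp352/Zfp353-DKO. Col1a1 alone went from 33.0 ± 1.75% to 21.4 ± 1.64% and 19.2 ± 0.714%. Col5a1 held 17.4 ± 0.989%, 17.9 ± 0.488% and 18.3 ± 0.155%, so its share overlapped between genotypes while its level was lower. The share of Col5a2 was 6.19 ± 0.529%, 7.70 ± 0.415% and 8.81 ± 1.32%, higher in every edited library than in any Parental library.

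**Figure D3:**
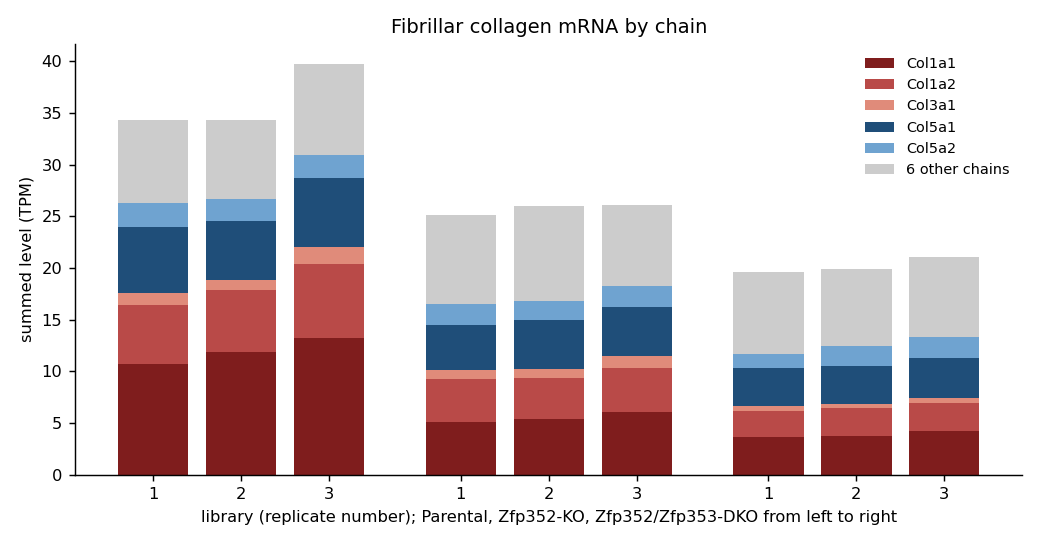
Summed TPM of the 11 fibrillar chain genes (y axis) in each library (x axis, replicates 1 to 3 of each genotype, from Parental on the left to Zfp352/Zfp353-DKO on the right), stacked by chain with the 6 other chains in grey. The grey part, chains that the choice by measured values left out, is between 7.50 and 9.21 TPM in every library, and the dark red part, Col1a1, is smaller in both edited genotypes than in Parental.

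The other fibrillar chains are those that the choice of the 5 genes left out. That choice used the same differences, so the values of the other chains partly describe it and show no contrast of their own. They are Col2a1, the cartilage collagen, Col5a3, a further chain of type V, Col11a1 and Col11a2, which with the Col2a1 product make type XI, and Col24a1 and Col27a1. Their summed level was 7.58 to 8.71 TPM in Parental libraries, 7.84 to 9.21 TPM with Zfp352-KO and 7.50 to 7.91 TPM in Zfp352/Zfp353-DKO libraries. Of the 5 with enough reads, all but Col24a1, 0 passed an adjusted p of 0.05 against Parental in either edited genotype with edgeR's quasi-likelihood test, 0 had an unadjusted p under 0.05, and 0 passed with DESeq2. Between the edited genotypes 0 passed with either tool, and 1, Col2a1, had an unadjusted p under 0.05. Of all tested genes, 7.06% passed in Zfp352-KO, 8.47% in Zfp352/Zfp353-DKO and 0.105% between them.

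Their fold changes had errors that bound the size of any difference only loosely for the rarest. Col5a3, at 2.41 ± 0.307 TPM in Parental, had a level like that of Col5a2 and log2 differences of -0.10 ± 0.12 for Zfp352-KO and -0.12 ± 0.12 for Zfp352/Zfp353-DKO. Col2a1, at 2.89 ± 0.0611 TPM, had 0.12 ± 0.12 and -0.19 ± 0.12. Col11a1 stood at 0.10 ± 0.14 and 0.13 ± 0.14, and Col27a1 at 0.01 ± 0.13 and -0.16 ± 0.13. Col11a2 had 3 to 15 counts per library and differences of -0.30 ± 0.46 and -0.04 ± 0.44. The median over the 5 tested was 0.01 for Zfp352-KO and -0.12 for Zfp352/Zfp353-DKO.

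**Figure D4:**
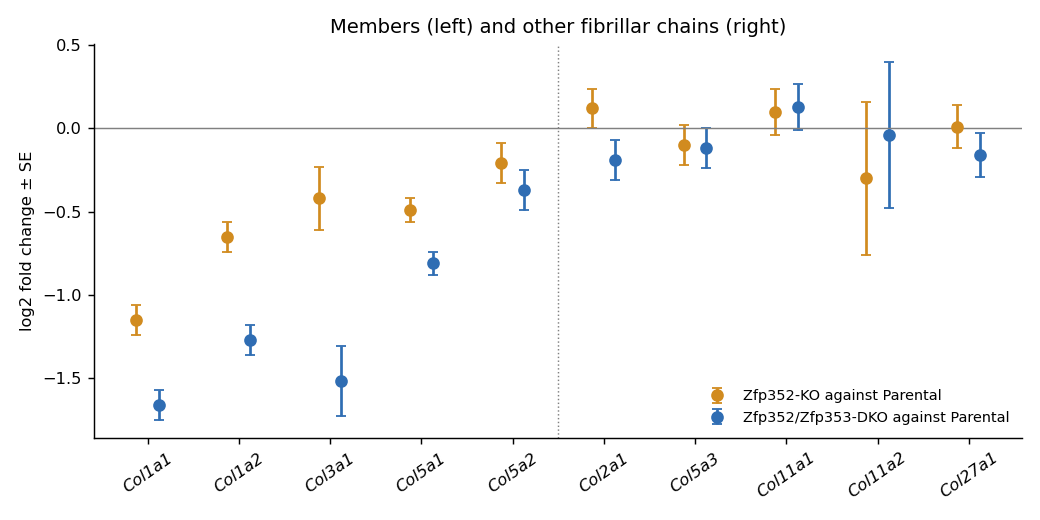
Log2 fold change against Parental ± SE (y axis) of the 5 chain genes, left of the dotted line, and of the 5 other fibrillar chains tested, right of it, for Zfp352-KO (orange) and Zfp352/Zfp353-DKO (blue). The left genes run from -1.66 to -0.21 and were chosen for being low; the right ones, left out by that choice, lie between -0.30 and 0.13.

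Genes that act on these chains were taken from 10 lists of 182 collagen pathway genes, the other fibrillar chains included. The lists were chosen with earlier results of these data known, so their shares beside all tested genes may partly describe that choice. In Zfp352-KO against Parental, 24 of the 139 tested fell and 6 rose (edgeR quasi-likelihood test, adjusted p under 0.05), which is 17.3% and 4.32%, beside 3.64% and 3.43% of all tested genes. In Zfp352/Zfp353-DKO, 25 fell and 2 rose, 18% and 1.44%, beside 4.82% and 3.65% of all tested genes. Between the edited genotypes 1 of 139 passed, Thbs1, which fell; that is 0.719%, beside 0.0909% of all tested genes that passed as lower and 0.0140% as higher. The median log2 difference of the lists was -0.10, -0.16 and -0.03 in these comparisons. Many calls were close to the threshold: only 10 of 30 in Zfp352-KO and 15 of 27 in Zfp352/Zfp353-DKO were kept whichever library was left out, and all of these fell. The count in Zfp352-KO was 10 without Parental replicate 1, 13 without Parental replicate 2, 11 without Zfp352-KO replicate 1 and 12 without Zfp352-KO replicate 2. In Zfp352/Zfp353-DKO it was 16 without Parental replicate 1 and 17 without Zfp352/Zfp353-DKO replicate 2, and between the edited genotypes it was 3 without Zfp352/Zfp353-DKO replicate 3. Unless said otherwise, the genes named as changed below are among those kept.

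Among genes of collagen folding and export, 4 of 22 fell in Zfp352-KO and 2 rose, and 4 fell in Zfp352/Zfp353-DKO. Serpinh1 encodes HSP47, the chaperone that binds procollagen in the endoplasmic reticulum. Its level was 69.88, 66.58 and 76.95 TPM in the Parental libraries, 54.41, 59.35 and 58.48 TPM in Zfp352-KO and 52.83, 50.38 and 52.87 TPM in Zfp352/Zfp353-DKO. All edited libraries were below all Parental ones, by 0.35 ± 0.06 on the log2 scale in Zfp352-KO (edgeR adjusted p 0.0011) and 0.49 ± 0.06 in Zfp352/Zfp353-DKO (edgeR adjusted p 1.4e-05). Sparc, a collagen-binding matrix protein, went from 153 ± 1.72 TPM to 127 ± 4.97 and 115 ± 2.71 TPM (edgeR adjusted p 3.8e-04 and 2.5e-06). Fkbp10, a prolyl isomerase of the collagen folding complex, fell by 0.45 ± 0.08 in Zfp352/Zfp353-DKO (edgeR adjusted p 0.0013). Its call in Zfp352-KO, at -0.33 ± 0.08 and adjusted p 0.019 in edgeR, was lost without Parental replicate 1, at 0.1, Parental replicate 2, at 0.054, Zfp352-KO replicate 1, at 0.08, or Zfp352-KO replicate 2, at 0.081.

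Of 11 genes that process or crosslink procollagen, 3 fell for Zfp352-KO and 1 for Zfp352/Zfp353-DKO. Bmp1, the proteinase that removes the C-terminal propeptide of procollagens I to III, had 5.51, 6.48 and 6.31 TPM in Parental, 4.80, 4.09 and 4.00 TPM in Zfp352-KO and 3.41, 2.44 and 3.20 TPM in Zfp352/Zfp353-DKO. The genotypes did not overlap, and it fell by 0.56 ± 0.11 in Zfp352-KO (edgeR adjusted p 0.0061) and by 1.04 ± 0.12 in Zfp352/Zfp353-DKO (edgeR adjusted p 1.1e-05). Its call in Zfp352-KO was lost with limma on log2(TPM + 1), at an adjusted p of 0.071.

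Collagens that form other structures fell in part. Of the 16 network, beaded, anchoring and transmembrane collagens tested, 3 fell for Zfp352-KO and 4 for Zfp352/Zfp353-DKO. Col4a1 and Col4a2, the main basement membrane chains, fell by 0.50 ± 0.08 and 0.53 ± 0.09 in Zfp352-KO (edgeR adjusted p 0.0011 and 0.0025). They fell by 0.49 ± 0.08 and 0.61 ± 0.09 in Zfp352/Zfp353-DKO (edgeR adjusted p 6.1e-04 and 4.1e-04). With limma on log2(TPM + 1) their Zfp352-KO calls were lost, at adjusted p 0.054 and 0.076. Col7a1, the anchoring fibril collagen, went from 1.91 ± 0.142 TPM to 1.18 ± 0.0737 and 0.963 ± 0.0902 TPM (edgeR adjusted p 4.3e-04 and 6.6e-06). Of 8 fibril-associated collagens, 0 passed in Zfp352-KO with edgeR or DESeq2, 3 having an unadjusted p under 0.05. These 3 stood higher than Parental: Col20a1 at 0.45 ± 0.19, Col22a1 at 0.49 ± 0.15 and Col26a1 at 0.64 ± 0.30. For Zfp352/Zfp353-DKO they were higher too, at 0.56 ± 0.19, 0.38 ± 0.15 and 0.66 ± 0.30, without a call. Col9a2 stood lower there, at -0.18 ± 0.06, also without a call. The list's median log2 difference was 0.09 for Zfp352-KO but 0.04 for Zfp352/Zfp353-DKO. Only Col12a1 of this list was called, falling by 1.03 ± 0.20 in Zfp352/Zfp353-DKO (edgeR adjusted p 0.0038). With limma on log2(TPM + 1) the Col12a1 call was lost, at an adjusted p of 0.088.

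Thbs1, the secreted matrix glycoprotein thrombospondin 1, was the pathway gene that differed between the edited genotypes. Its level was 17.00, 16.88 and 19.88 TPM in the Parental libraries, 12.06, 11.91 and 11.07 TPM in Zfp352-KO and 7.05, 8.02 and 7.65 TPM in Zfp352/Zfp353-DKO. The genotypes did not overlap and stood in the order seen for Col1a1, Col1a2 and Col5a1. It fell by 0.66 ± 0.06 and 1.28 ± 0.07 against Parental (edgeR adjusted p 4.4e-06 and 9.9e-10) and by 0.62 ± 0.07 in Zfp352/Zfp353-DKO against Zfp352-KO (edgeR adjusted p 2.2e-04). That last call was lost with limma on log2(TPM + 1), at an adjusted p of 0.063. Tnc, the matrix glycoprotein tenascin C, fell by 1.45 ± 0.21 in Zfp352/Zfp353-DKO (edgeR adjusted p 1.6e-04). Of the 12 fibril-binding matrix genes tested, these 2 were called lower in each edited genotype, and 1 gene, Fn1, was called higher in Zfp352-KO. Fn1, the matrix glycoprotein fibronectin, stood at 0.22 ± 0.06 in Zfp352-KO (edgeR adjusted p 0.045) and 0.16 ± 0.06 in Zfp352/Zfp353-DKO (edgeR adjusted p 0.14). Its call was lost without Parental replicate 1 or 2 (0.19 and 0.16), Zfp352-KO replicate 1 or 2 (0.25 and 0.12) or Zfp352/Zfp353-DKO replicate 2 (0.057). The Zfp352-KO call of Tnc, at -0.77 ± 0.19 (edgeR adjusted p 0.022), was lost without Parental replicate 1, 2 or 3 (0.086, 0.054 and 0.062) and without Zfp352-KO replicate 1 or 2 (0.12 and 0.11).

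Receptors and degrading enzymes held some calls, beside 7.06% of all tested genes called for Zfp352-KO and 8.47% called for Zfp352/Zfp353-DKO. Of 9 collagen receptor genes, 2 fell and 1 rose in Zfp352-KO and 3 fell in Zfp352/Zfp353-DKO, and none of these calls was kept whichever library was left out. Ddr2, the receptor tyrosine kinase that binds fibrillar collagen, was 0.25 ± 0.06 higher in Zfp352-KO (edgeR adjusted p 0.027) and stood at -0.06 ± 0.06 in Zfp352/Zfp353-DKO (edgeR adjusted p 0.59). The Ddr2 call was lost without Parental replicate 1 or 2 (0.1 and 0.11) and without Zfp352-KO replicate 1 or 2 (0.11 and 0.1), and its difference between the edited genotypes, -0.31 ± 0.06, had an edgeR adjusted p of 0.072. Of 8 collagen-degrading enzymes and their inhibitors, 2 fell in each edited genotype. Timp2, a metalloproteinase inhibitor, fell by 0.67 ± 0.13 in Zfp352/Zfp353-DKO (edgeR adjusted p 0.0023).

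Upstream of the collagen genes, 3 of 18 genes of the TGF-beta pathway, a main inducer of fibrillar collagen in mesenchyme, fell for Zfp352-KO and 2 for Zfp352/Zfp353-DKO. Tgfb2, a ligand, had 2.14, 1.84 and 2.20 TPM in Parental, 1.13, 1.00 and 1.17 TPM in Zfp352-KO and 0.69, 1.08 and 1.15 TPM in Zfp352/Zfp353-DKO. All edited libraries were below all Parental ones, by 0.95 ± 0.16 (edgeR adjusted p 0.002) and 1.13 ± 0.17 on the log2 scale (edgeR adjusted p 2.6e-04). Ctgf, a matricellular protein and known TGF-beta and YAP target, fell by 0.44 ± 0.08 and 0.57 ± 0.08 (edgeR adjusted p 0.0028 and 1.4e-04).

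Of 30 genes listed as collagen gene regulators, mostly transcription factors and their cofactors, 5 fell and 2 rose in Zfp352-KO and 6 fell and 2 rose in Zfp352/Zfp353-DKO. Cebpb, a basic leucine zipper factor, had 15.05, 12.49 and 12.67 TPM in Parental, 6.81, 6.89 and 8.33 TPM in Zfp352-KO and 11.57, 15.59 and 9.07 TPM in Zfp352/Zfp353-DKO. It fell by 0.91 ± 0.16 in Zfp352-KO (edgeR adjusted p 0.0028), whereas Zfp352/Zfp353-DKO overlapped Parental, at -0.19 ± 0.15 (edgeR adjusted p 0.49). The difference between the edited genotypes, 0.72 ± 0.17, had an edgeR adjusted p of 0.15. Ets1, an ETS-domain factor, fell by 1.00 ± 0.14 in Zfp352/Zfp353-DKO (edgeR adjusted p 1.0e-04), and Tead2, a DNA-binding partner of YAP, by 0.25 ± 0.05 (edgeR adjusted p 0.0033). Tead1, another such partner, was called higher in both, at 0.28 ± 0.07 for Zfp352-KO and 0.25 ± 0.07 for Zfp352/Zfp353-DKO (edgeR adjusted p 0.023 and 0.031). The Zfp352-KO call of Tead1 was lost without Parental replicate 1 or 2 (0.13 and 0.1) or Zfp352-KO replicate 1 or 2 (0.14 and 0.051). Its Zfp352/Zfp353-DKO call was lost without Parental replicate 1 or 2 (0.14 and 0.13) or Zfp352/Zfp353-DKO replicate 2 or 3 (0.06 and 0.14).

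**Figure D5:**
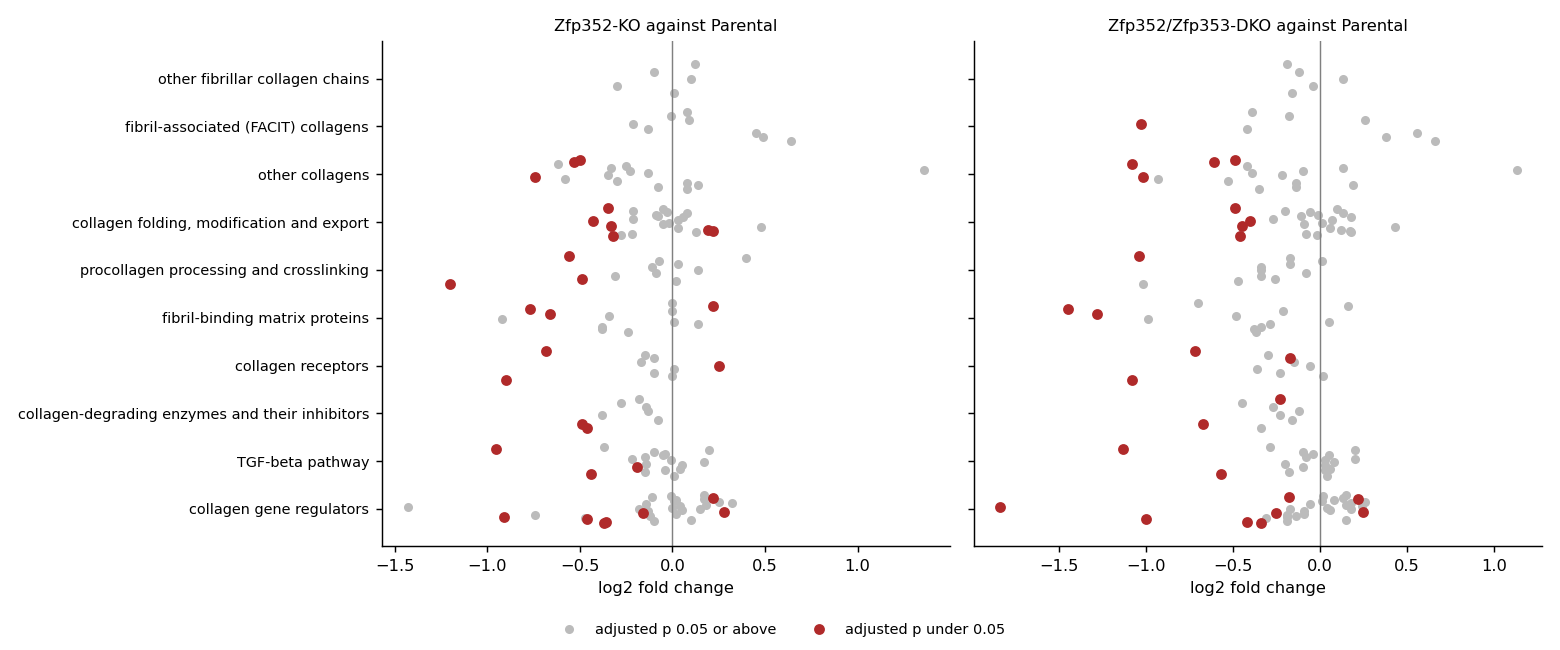
Log2 fold change against Parental (x axis) of the 139 tested collagen pathway genes, grouped by list (y axis), in Zfp352-KO (left) and Zfp352/Zfp353-DKO (right), with 1 point per gene and red for an adjusted p under 0.05. Red points fall mainly left of 0, 24 against 6 in Zfp352-KO and 25 against 2 in Zfp352/Zfp353-DKO, and the first row, the other fibrillar chains that the choice of the 5 genes left out, holds none. The lists were chosen with earlier results of these data known.

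The genes beside the chain genes on their chromosomes were then compared. The nearest tested gene on each side gave 8 neighbours that are not fibrillar collagen chains, from 38.2 to 515 kb away. In Zfp352-KO 0 of the 8 passed with edgeR or DESeq2, and 2 had an unadjusted p under 0.05. In Zfp352/Zfp353-DKO 1 passed with either tool, and between the edited genotypes 0 passed and 1 had an unadjusted p under 0.05. The gene that passed was Ppp1r9b, 38.2 kb from Col1a1, at -0.20 ± 0.06 (edgeR adjusted p 0.029), a call lost without Zfp352/Zfp353-DKO replicate 2 (0.14), Parental replicate 1 (0.11), Parental replicate 3 (0.083) or Zfp352/Zfp353-DKO replicate 3 (0.062). Casd1, 59.4 kb from Col1a2, stood at 0.26 ± 0.08 for Zfp352-KO and 0.17 ± 0.08 for Zfp352/Zfp353-DKO (edgeR adjusted p 0.07 and 0.22), and Rxra, 123 kb from Col5a1, at -0.01 ± 0.07 and -0.10 ± 0.07 (edgeR adjusted p 0.95 and 0.38). The adjacent Col3a1 and Col5a2 had unlike values, -1.52 and -0.37 in Zfp352/Zfp353-DKO.

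Genes with the most similar profile were listed for each chain by the root-mean-square difference of log2 CPM (counts scaled to library size) over the 9 libraries, each gene centred on its mean; a small value means a like profile, and no test is given. For Col1a1 these were Wisp1, which encodes the matricellular protein CCN4, at 0.135, Prss23 at 0.163 and Anxa3 at 0.176. For Col1a2 they were Thbs1 at 0.070, Tagln, a smooth muscle actin-binding protein, at 0.096 and Sp110 at 0.106. Col3a1 had Prss23 at 0.239, Thbs1 at 0.257 and Lsp1 at 0.261. Col5a1 had the actin-binding tropomyosin gene Tpm1 at 0.081, Btbd17 at 0.088 and Arl4c at 0.090, and Col5a2 had Phactr1 at 0.067, Mpc2 at 0.073 and Cntnap2 at 0.080. Other chains were left out of these rankings. Col1a2 was 0.224 from Col3a1, closer than any gene listed for Col3a1. Each other chain was closer to its 3 listed genes than to any chain. The listed genes are the closest of all tested genes outside the chains, and the chains are few. This comparison therefore cannot show that the chains are less alike than other genes are. The partners Col1a1 and Col1a2 were 0.227 apart and Col5a1 and Col5a2 0.220, while Col1a2 and Col5a1, of different types, were 0.203 apart.

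Cell type markers moved with the chain genes in part. The marker lists, too, were chosen with earlier results of these data known, and some of their genes are also in the pathway lists. Of all tested genes, 3.64% were called lower and 3.43% higher for Zfp352-KO, and 4.82% and 3.65% for Zfp352/Zfp353-DKO. Of 20 fibroblast and mesenchymal markers, Dpt and Tcf21 were at 0 in all 9 libraries, 11 could be tested, and 2 fell in each edited genotype. These were Vim and Thy1 in Zfp352-KO, and Vim and Twist2 in Zfp352/Zfp353-DKO. The Thy1 call was lost without Parental replicate 1 (edgeR adjusted p 0.11) or Zfp352-KO replicate 1 or 2 (edgeR adjusted p 0.055 and 0.081). The Twist2 call was kept in only 2 of 9 omissions of a library. The summed level of the list was 182 to 192 TPM in Parental libraries, 157 to 158 TPM with Zfp352-KO and 138 to 141 TPM in Zfp352/Zfp353-DKO, of which Vim, an intermediate filament gene, made up 153, 127 and 106 TPM on average. Of 8 tested smooth muscle and myofibroblast markers, 3 fell for Zfp352-KO and 4 for Zfp352/Zfp353-DKO, and the sum was 97.0 to 103, 66.7 to 77.3 and 53.3 to 57.3 TPM. Tagln fell by 0.76 ± 0.07 and 1.25 ± 0.08 against Parental (edgeR adjusted p 4.4e-06 and 3.2e-09) and by 0.49 ± 0.08 in Zfp352/Zfp353-DKO against Zfp352-KO (edgeR adjusted p 0.015). That last call was lost without Zfp352-KO replicate 2 or 3 (0.088 and 0.086) and without Zfp352/Zfp353-DKO replicate 1 or 2 (0.12 and 0.077).

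Osteoblast markers, of which Ibsp was at 0 in every library, had 0 of 4 called in Zfp352-KO with edgeR or DESeq2. There 2 had an unadjusted p under 0.05, and 1, Spp1, was called higher in Zfp352/Zfp353-DKO. The Spp1 call was lost without Parental replicate 1 or 3 (edgeR adjusted p 0.12 and 0.062) or Zfp352/Zfp353-DKO replicate 2 or 3 (edgeR adjusted p 0.05 and 0.066). The osteoblast markers summed to 351 to 367 TPM in Parental libraries, 383 to 392 TPM with Zfp352-KO and 385 to 411 TPM in Zfp352/Zfp353-DKO. Of 6 chondrocyte markers 0 passed in either edited genotype with edgeR or DESeq2, with 1 and 0 at an unadjusted p under 0.05 and sums of 7.83 to 8.41, 8.85 to 9.25 and 7.83 to 8.10 TPM. Trophectoderm markers fell for 4 of 8 in each edited genotype, with sums of 391 to 451, 289 to 293 and 257 to 269 TPM. Of 7 mesoderm markers 3 fell for Zfp352-KO and 2 for Zfp352/Zfp353-DKO, with sums of 99.9 to 102, 73.2 to 74.4 and 79.8 to 93.4 TPM. Of 8 endothelial markers 0 passed in Zfp352-KO with edgeR or DESeq2, 2 having an unadjusted p under 0.05, and 1, Pecam1, was called higher in Zfp352/Zfp353-DKO, at 0.21 ± 0.04 (edgeR adjusted p 0.006), a call lost without Parental replicate 1 (0.066). Their sums were 102 to 111, 116 to 120 and 121 to 130 TPM.

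Primitive and parietal endoderm markers, a list that holds Col4a1 and Col4a2, fell for 3 of 11 in Zfp352-KO: these 2 chains and Plat, tissue plasminogen activator. In Zfp352/Zfp353-DKO 4 fell, the same 3 genes and Lamb1, a laminin chain, and 1 rose, Lama1, another laminin chain, at 0.37 ± 0.07 (edgeR adjusted p 0.0041). The Lama1 call was lost with limma on log2(TPM + 1), at an adjusted p of 0.06. The Lamb1 call, at -0.19 ± 0.05 (edgeR adjusted p 0.038), was lost without Parental replicate 1 or 2 (0.17 and 0.17), Zfp352-KO replicate 2 or 3 (0.063 and 0.05) or Zfp352/Zfp353-DKO replicate 1 or 2 (0.13 and 0.14). The Zfp352-KO call of Plat, at -0.75 ± 0.18 (edgeR adjusted p 0.021), was lost without Parental replicate 1 or 2 (0.1 and 0.074) and without Zfp352-KO replicate 1 or 3 (0.068 and 0.058). The sums of this list overlapped between the genotypes, at 82.1 to 93.5, 71.2 to 87.1 and 71.3 to 86.9 TPM. The part of these markers in the collagen values was not tested.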

How the data were processed

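Per the labels' protocols, TruSeq stranded mRNA libraries were read single-end for 75 bases on a NextSeq 500. Per the submitters' processing notes, Trim Galore 0.6.6, STAR 2.7.8a, RSEM 1.3.3 and build mm10 were used; their order and settings, the annotation release and any use of strand were not given in sources used here. The deposited tables hold RSEM expected counts, of which 9.27% were not whole, and TPM, a level the authors normalised for length and depth, per the file headers. Deposited FPKM values were not used.

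Rounded expected counts went into edgeR 4.0.16 (R 4.3.3), with TMM factors of 0.992 to 1.01, filterByExpr, glmQLFit and the two-sided glmQLFTest. The model had genotype as its term, used the 9 libraries together, left 6 residual degrees of freedom and had Benjamini-Hochberg adjustment over 14300 genes; a gene was called at an adjusted p under 0.05. The common biological coefficient of variation was 4.95%. The steps were tested on simulated data. Libraries of a genotype differed beyond sampling noise (chi-square per degree of freedom 2.495 to 6.913); the labels do not say that they are separate cultures, so the spread behind the p-values may be technical. Depth was 16599004 to 22044820 expected counts.

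The chain genes, the pathway and marker lists and the tests were chosen with earlier results of these data known. Named are the 5 chain genes, Zfp352 and the other fibrillar chains. Up to 4 called genes per pathway list, with the smallest adjusted p in each comparison, are named too. So are the nearest tested neighbours, the 3 genes of most similar profile outside the 5 chains, and markers whose mean TPM reached 1 in a genotype. Dpt, Tcf21 and Ibsp were named after their zeros were seen. Ratios are quotients of TPM per library. Alternatives were RLE or no scaling, other filters, DESeq2 1.42.0, limma 3.58.1 trend fits on log2(TPM + 1) and log2(TPM + 0.1), 6-library fits, a replicate block, removal of a loess trend (span 0.3) on length and GC content, an adjusted p of 0.01, other lengths in ratios, and omission of each library. Of 24411 symbols, 24318 matched RefSeq genes, and 99.6% of tested genes had a GC content.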

Additional observations from a re-analysis of the deposited data

How the results depend on the processing

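All 300 alternative log2 fold changes of the 5 chain genes were below 0, and 289 moved by less than the spread between libraries. The 11 others came from limma on log values. On log2(TPM + 1), which understates changes of low genes, Col1a1, Col1a2 and Col5a1 stood at -0.99, -0.50 and -0.38 in Zfp352-KO. In Zfp352/Zfp353-DKO, Col1a1, Col1a2, Col3a1, Col5a1 and Col5a2 stood at -1.41, -0.98, -0.63, -0.63 and -0.22, and Col1a2 and Col3a1 at -0.48 and -0.44 against Zfp352-KO. On log2(TPM + 0.1), Col3a1 was -1.28 in Zfp352/Zfp353-DKO.

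Ratios of expected counts, with no length, were 1.73, 1.22 and 1.32 for Col1a1 to Col1a2 and 3.59, 2.96 and 2.69 for Col5a1 to Col5a2 in Parental, Zfp352-KO and Zfp352/Zfp353-DKO, and 8.22, 4.86 and 7.34 for Col1a1 to Col3a1.

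Pathway genes called were 30, 27 and 1 in the 3 comparisons. In Zfp352-KO the count was 8 with limma on either log scale, 11 at an adjusted p under 0.01 and 10 to 37 with 1 library left out. In Zfp352/Zfp353-DKO it was 15 and 14 with limma on log2(TPM + 1) and log2(TPM + 0.1), and 16 to 30 with 1 library left out. Between the edited genotypes it was 5 without a filter, 3 with DESeq2, 0 with limma on either scale, 3 with the length and GC trend removed, 2 with the trend removed and a replicate block, and 1 to 3 with 1 library left out. The cause was not tested. With the trend removed, the calls in Zfp352/Zfp353-DKO were 26 lower and 7 higher.

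The replicate numbers did not pair the libraries: deviations of same-numbered libraries correlated at -0.077 to 0.106 over 9 pairs, and those of different numbers at -0.084 to 0.101. With the number as a replicate block, 20, 23 and 1 pathway genes were called. The rarest chain, Col3a1, with 23 to 95 counts per library, is the one most limited by depth.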
